A study of Mus musculus with 6 samples.

Results

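The genes described here are p53 (Trp53), 27 genes that p53 regulates or that act with it, and the 4 kinases that signal DNA damage (Atm, Atr, Chek1 and Chek2). They are 32 of the 36528 genes listed for each library of lumbar dorsal root ganglion, and were found by their NCBI mouse gene identifiers. All 32 were listed, and 31 of them were among the 22043 genes with enough counts to test; Gdf15 was not. The question put to them was whether libraries from animals that carry a Cre recombinase show a DNA damage response.

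RNA was sequenced from 6 female mice aged 12 to 18 weeks, with the 6 ganglia of spinal levels L4, L5 and L6 of 1 mouse in each library. All 6 mice were Scn9a loxP/loxP, so that both copies of Scn9a, the gene of the sodium channel Nav1.7, are flanked by sites for Cre. Controls were 3 littermates negative for pCAAG.Cre.ER (CreER-negative), and the other 3 mice carried pCAAG.Cre.ER (CreER-positive), a transgene for a fusion of Cre with an oestrogen receptor domain, in a design described as a global Nav1.7 knockout. Neither the inducing drug, its dose and timing, nor the deleted exons are given in the sources used here. Only one group carried CreER, so an effect of the recombinase itself and an effect of the loss of Nav1.7 cannot be told apart in these libraries. Replicate numbers below are names only.

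p53 is a transcription factor that is held at a low level by Mdm2, a ubiquitin ligase whose own gene p53 activates. Breaks in DNA or stalled replication activate the kinases Atm and Atr, which through Chek2 and Chek1 stabilise p53, and p53 then raises genes that stop the cell cycle, slow growth, repair DNA or promote cell death. In sensory neurons, which no longer divide, the same genes also respond to other stresses such as axon damage, and Cre can itself cut DNA at sites that resemble loxP.

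To show the sequence through which p53 acts, RefSeq windows (build GRCm38.p6) reaching from 250 bases before to 50 bases after a gene's start were searched on both strands for the p53 motif. The motif is 2 units of 10 letters with 0 to 13 letters between them, and up to 2 letters off the consensus were allowed provided the 4 letters at the core of each unit matched. Windows were held for 25 of the 32 genes, and 3 of these 25 (12.0%) had a match: Cdkn1a, Bax and Sesn1. The same search matched 667 of 27025 genes (2.47%). Cdkn1a encodes p21, the inhibitor of cyclin-dependent kinases, and its window, shown because p21 is a defining target of p53, is chr17:29090729-29091028 on the plus strand, at the upstream of its 2 starts. Capitals mark the matched units. The last 2 units abut and lie 1 letter off the consensus, and the first base of that pair is 51 bases before the start. The first and second units, with 12 letters between them, match without a letter off.
Cdkn1a window: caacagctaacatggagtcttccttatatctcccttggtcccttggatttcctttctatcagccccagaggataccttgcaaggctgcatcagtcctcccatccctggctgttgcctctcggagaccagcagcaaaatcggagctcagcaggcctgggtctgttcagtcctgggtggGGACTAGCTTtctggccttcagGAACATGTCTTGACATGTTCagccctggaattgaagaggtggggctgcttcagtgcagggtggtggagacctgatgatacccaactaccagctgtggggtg

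The matched stretches of Bax and Sesn1 are shown to set them beside that of Cdkn1a; each is 2 letters off the consensus. For Bax, the gene of a protein that opens pores in mitochondria, the stretch is on the minus strand at chr7:45467079-45467099, its first base 201 bases before the start. A second Bax match shares one of these units. For Sesn1, which encodes a sestrin that restrains growth signalling, it belongs to the downstream of 2 starts and is on the plus strand at chr10:41887253-41887275, 186 bases before the start. Capitals mark the 2 units.
Bax: AGGCAAGCTTtGAACTTGCGG
Sesn1: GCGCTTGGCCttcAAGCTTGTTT

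Phlda3, the gene with the smallest p-value among the 31 in these libraries, had no match in its window, chr1:135765835-135766134 on the plus strand. The bases just after the start in this window were not found in an annotated transcript of Phlda3. For 26 of the 33 windows of these genes they were. The window is shown because its final 8 letters, in capitals, could begin a unit that the end of the window cuts. Such an ending, with a letter fewer or more also counted, was found in 1 of the 33 windows of these genes and in 0.384% of all windows. A match describes letters only, and the absence of one refers only to the window searched.
Phlda3 window: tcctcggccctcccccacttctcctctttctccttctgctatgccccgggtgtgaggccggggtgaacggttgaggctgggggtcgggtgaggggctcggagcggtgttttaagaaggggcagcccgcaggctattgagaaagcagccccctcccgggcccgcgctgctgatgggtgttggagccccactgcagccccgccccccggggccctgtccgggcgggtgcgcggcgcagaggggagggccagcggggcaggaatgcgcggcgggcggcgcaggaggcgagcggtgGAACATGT

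Across the 31 tested genes, no difference between CreER-positive and control libraries passed an adjusted p of 0.05 by the quasi-likelihood method of edgeR, adjusted by Benjamini-Hochberg over all 22043 genes. The background rate of such calls was 0.726% (160 genes), 0.177% for genes higher in CreER-positive libraries and 0.549% for lower ones. That number moved with single libraries, to 69, 60 and 76 without control replicate 1, 2 or 3 and to 549 without CreER-positive replicate 3. limma-voom also called none of the 31 (background 0.721%), and DESeq2 called Phlda3 and Ephx1 (background 1.93%). An unadjusted edgeR p under 0.05 was found for 5 of the 31 (16.1%), against a background of 10.5%. Phlda3, Ephx1, Cdkn1a and Ccng1 were the 4 that were higher in CreER-positive libraries (background 4.99%), and Xpc was the 1 that was lower (background 5.47%).

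The groups did not overlap for 9 of the 31 genes (29.0%), against a background of 15.9%; other scalings and filters gave 7 to 9. Of these, 6 were higher in CreER-positive libraries (background 6.63%) and 3 were lower (background 9.31%). The log2 fold change was positive for 17 genes and negative for 14, with a median of 0.01 beside 0.00 over all tested genes. The data set a narrow limit for most: the 95% interval of the fold change lay within 1.5-fold in either direction for 29 of 31, Phlda3 and Eda2r being the exceptions, and within 1.2-fold for 12.

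**Figure D1:**
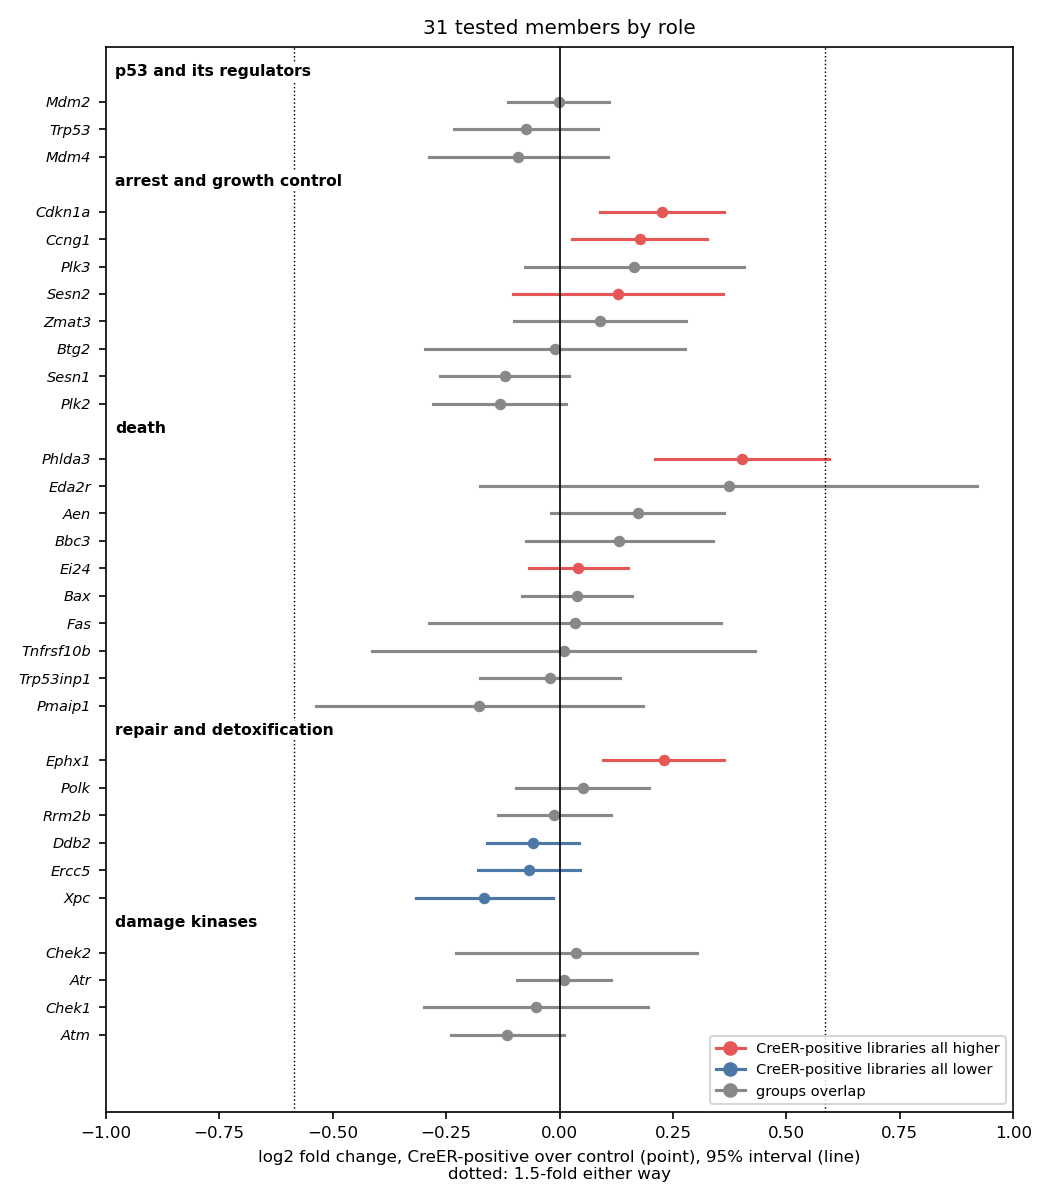
The log2 fold change of each of the 31 tested genes (x axis, CreER-positive over control) is plotted by role, with points for the edgeR estimate and bars for its 95% interval. Red and blue mark genes whose CreER-positive libraries were all higher or all lower; Phlda3 at 0.40, Ephx1 at 0.23, Cdkn1a at 0.23 and Ccng1 at 0.18 have intervals above 0 and Xpc at -0.17 one below 0, and none of the 31 passed an adjusted p of 0.05 in edgeR.

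p53 and its inhibitors overlapped between the groups. The counts relative to library size (CPM, scaled by trimmed mean of M-values, TMM) of Trp53 were 32.3, 31.5 and 31.2 in the controls and 27.6, 29.5 and 33.1 in the CreER-positive libraries. CreER-positive replicate 3 was the highest of all 6 and replicate 1 the lowest, so the groups overlapped. On the log2 scale the difference was -0.07 ± 0.07 (SE, n = 3 against 3; edgeR adjusted p = 0.793). p53 is regulated largely at the level of its protein, which RNA counts do not measure.

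Mdm2, which p53 activates in a feedback loop, measured 65.0, 64.3 and 67.0 CPM among controls, against 66.2, 62.7 and 67.2 CPM among CreER-positive mice. The groups lay on top of each other, with means of 65.4 ± 1.40 and 65.4 ± 2.35 (SD, n = 3). Its log2 fold change had a 95% interval from -0.11 to 0.11 (edgeR adjusted p = 0.996). Mdm4, a relative of Mdm2 that blocks the activating part of p53, averaged 110 ± 7.87 and 103 ± 12.0 CPM (SD, n = 3), and its groups overlapped (log2 fold change -0.09, edgeR adjusted p = 0.796).

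Among the genes of cell cycle arrest and growth control, Cdkn1a and Ccng1 lay higher in every CreER-positive library than in any control. Cdkn1a (chr17:29090979-29100722, plus strand) measured 42.0, 45.1 and 44.7 CPM among controls, against 47.8, 54.3 and 52.1 CPM among CreER-positive mice. No library of either group crossed into the range of the other, and the fold change was 1.17 (95% interval 1.06 to 1.29). Its log2 fold change of 0.23 ± 0.06 (SE, n = 3 against 3) had an unadjusted p of 0.0046 and an adjusted p of 0.197 in edgeR, and DESeq2 gave an adjusted p of 0.107.

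Ccng1 encodes cyclin G1, which acts with a phosphatase on Mdm2. It measured 189, 181 and 192 CPM among controls, against 201, 205 and 227 CPM among CreER-positive mice, with replicate 3 the highest. Ccng1 had a log2 fold change of 0.18 ± 0.07 (SE, n = 3 against 3; edgeR adjusted p = 0.373). Sesn2, a sestrin related to Sesn1, also did not overlap between groups, at 3.86, 3.70 and 3.72 CPM against 4.15, 4.30 and 3.87 CPM, where the lowest CreER-positive library was just above the highest control; with DESeq2 size factors or upper-quartile scaling the groups overlapped. Its log2 fold change was 0.13 ± 0.10 (SE, n = 3 against 3; edgeR adjusted p = 0.744).

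The other genes of arrest and growth control overlapped between groups and pointed both ways. Plk2, a polo-like kinase, had a log2 fold change of -0.13 (edgeR adjusted p = 0.537) and its relative Plk3 one of 0.17 (edgeR adjusted p = 0.666). Sesn1 stood at -0.12 (edgeR adjusted p = 0.556), the opposite sign to Sesn2. Zmat3, an RNA-binding protein induced by p53, stood at 0.09 and Btg2, a brake on proliferation, at -0.01. Gdf15, a secreted stress signal, had 2, 6 and 9 reads in the controls and 8, 10 and 8 reads in the CreER-positive libraries, too few to test. The 8 tested genes of this role had a median log2 fold change of 0.11.

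**Figure D2:**
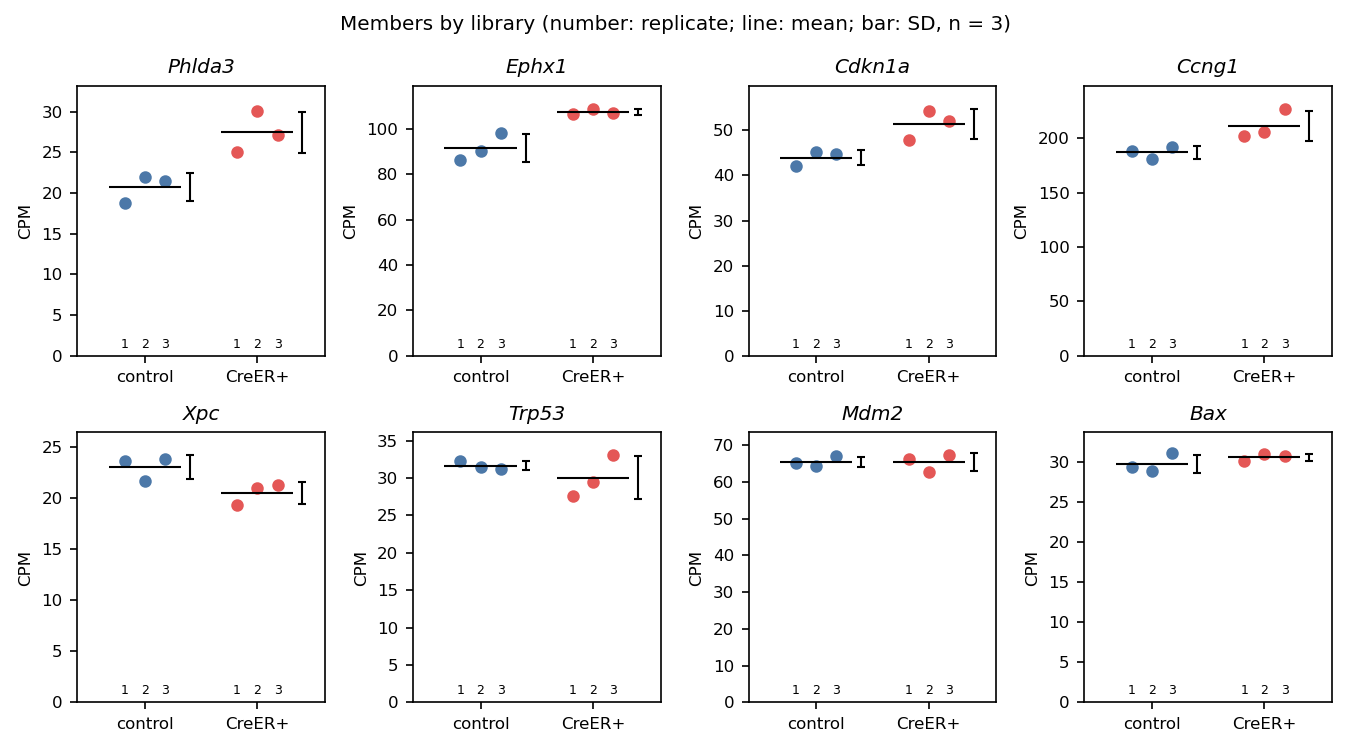
CPM (y axis, from 0) of 8 genes in each library, with points for libraries, numbers for replicates, lines for means and bars for SD (n = 3). Phlda3, Ephx1, Cdkn1a and Ccng1 do not overlap and are higher in CreER-positive libraries, Xpc does not overlap and is lower, and Trp53, Mdm2 and Bax overlap.

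Phlda3 had the smallest p-value of the 31 genes. It encodes a protein with a pleckstrin homology domain that competes with the survival kinase Akt for membrane lipids. Phlda3 (chr1:135766085-135769134, plus strand) measured 18.8, 21.9 and 21.5 CPM among controls, against 25.0, 30.1 and 27.2 CPM among CreER-positive mice. Every CreER-positive library was above every control, with means of 20.7 ± 1.69 and 27.4 ± 2.57 (SD, n = 3). The fold change was 1.32 (95% interval 1.16 to 1.51), and the log2 fold change 0.40 ± 0.09 (SE, n = 3 against 3). The unadjusted p was 0.00101, which ranked 257th among all tested genes, and the adjusted p was 0.0864 in edgeR, 0.103 in limma-voom and 0.00400 in DESeq2. It passed in edgeR, at 0.0386, when no filter on low counts was applied (background 0.817%).

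The core genes of mitochondrial cell death overlapped between the groups. Bax measured 29.3, 28.9 and 31.1 CPM among controls, against 30.1, 31.0 and 30.8 CPM among CreER-positive mice; the highest of the 6 was a control. Its log2 fold change was 0.04 (95% interval -0.08 to 0.16; edgeR adjusted p = 0.865). Bbc3 (Puma) and Pmaip1 (Noxa), which release Bax from its inhibitors, had log2 fold changes of 0.13 and -0.18 (edgeR adjusted p = 0.693 and 0.780), and both overlapped between groups.

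Ei24, a protein of the endoplasmic reticulum induced by p53, did not overlap between groups, but by a small margin, and the groups overlapped with upper-quartile or total-count scaling and with a filter of 1 CPM. It measured 82.8, 86.0 and 85.7 CPM among controls, against 86.1, 89.6 and 86.3 CPM among CreER-positive mice. Ei24 had a log2 fold change of 0.04 ± 0.05 (SE, n = 3 against 3; edgeR adjusted p = 0.832).

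The death receptors Fas and Tnfrsf10b had log2 fold changes of 0.03 and 0.01, with edgeR adjusted p of 0.965 and 0.994. Eda2r, a receptor for ectodysplasin A2, had the widest interval of the set: it measured 0.812, 0.957 and 1.01 CPM among controls, against 0.984, 0.976 and 1.69 CPM among CreER-positive mice. Only CreER-positive replicate 3 stood above the controls, for a log2 fold change of 0.37 (95% interval -0.17 to 0.92; edgeR adjusted p = 0.666). Aen, a nuclease of apoptotic cells, stood at 0.17 (edgeR adjusted p = 0.537) and Trp53inp1, a p53-induced nuclear protein, at -0.02 (edgeR adjusted p = 0.952). The 10 genes of cell death had a median log2 fold change of 0.04.

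The genes of repair and detoxification split by direction. Ephx1 (chr1:180989556-181017569, minus strand), the microsomal epoxide hydrolase that detoxifies reactive epoxides, measured 86.4, 90.2 and 98.2 CPM among controls, against 107, 109 and 107 CPM among CreER-positive mice. The CreER-positive libraries were tightly grouped above all 3 controls. Its fold change was 1.17 (95% interval 1.07 to 1.29), and its log2 fold change 0.23 ± 0.06 (SE, n = 3 against 3). The unadjusted p was 0.00346 and the adjusted p 0.171 in edgeR, beside 0.0445 in DESeq2.

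Xpc and Ddb2 encode proteins that find ultraviolet and bulky lesions for nucleotide excision repair, and Ercc5 the nuclease that cuts beside them; all 3 lay lower in every CreER-positive library. Xpc (chr6:91489305-91515888, minus strand) measured 23.6, 21.6 and 23.8 CPM among controls, against 19.3, 20.9 and 21.3 CPM among CreER-positive mice. Its log2 fold change was -0.17 ± 0.07 (SE, n = 3 against 3; edgeR unadjusted p = 0.0345, adjusted p = 0.429). Ddb2 measured 66.7, 67.2 and 67.0 CPM against 65.5, 64.2 and 63.2 CPM, a small gap beside a very small spread among the controls.

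Ddb2 had a log2 fold change of -0.06 ± 0.05 (SE, n = 3 against 3; edgeR adjusted p = 0.728). Ercc5 measured 39.8, 39.3 and 38.9 CPM among controls, against 38.5, 36.1 and 38.0 CPM among CreER-positive mice, with a log2 fold change of -0.07 ± 0.05 (SE, n = 3 against 3; edgeR adjusted p = 0.723). Polk, a polymerase that copies past damaged bases, and Rrm2b, the p53-induced subunit of ribonucleotide reductase, overlapped between groups, at log2 fold changes of 0.05 and -0.01. Over the 6 genes of this role the median was -0.04.

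The damage kinases overlapped between groups. Atm, which responds to double-strand breaks, measured 58.5, 59.1 and 53.5 CPM among controls, against 54.2, 51.1 and 52.6 CPM among CreER-positive mice. Control replicate 3 lay among the CreER-positive libraries. Its log2 fold change was -0.12 (95% interval -0.24 to 0.01; edgeR unadjusted p = 0.0661, adjusted p = 0.524).

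Atr, which responds to stalled replication, measured 67.9, 66.7 and 65.8 CPM among controls, against 66.4, 66.6 and 68.7 CPM among CreER-positive mice, and its interval ran from -0.09 to 0.11 on the log2 scale. Chek1 and Chek2 stood at log2 fold changes of -0.05 and 0.04 (edgeR adjusted p = 0.919 and 0.951). These kinases act by phosphorylation, which RNA counts do not measure.

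Levels between the genes can be compared only per length, on the deposited RPKM scale (reads per kilobase of gene width, scaled to the size of the library). The width runs over introns, of which these genes hold very different shares: exons made up 4.07% of the width of Sesn1 and 77.4% of that of Plk2. On that scale Ccng1 had the highest control mean, 28.3, followed by Phlda3 at 6.96, Plk2 at 6.04 and Bax at 5.86. Trp53 stood at 2.81 and Eda2r, the lowest of the tested genes, at 0.0219. Of the 31, 9 overlap another annotated gene, Xpc, Ddb2 and Ei24 among them, and whether the counting used strand is not given in the sources used here. Phlda3, Ephx1, Cdkn1a and Ccng1 overlap none.

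**Figure D3:**
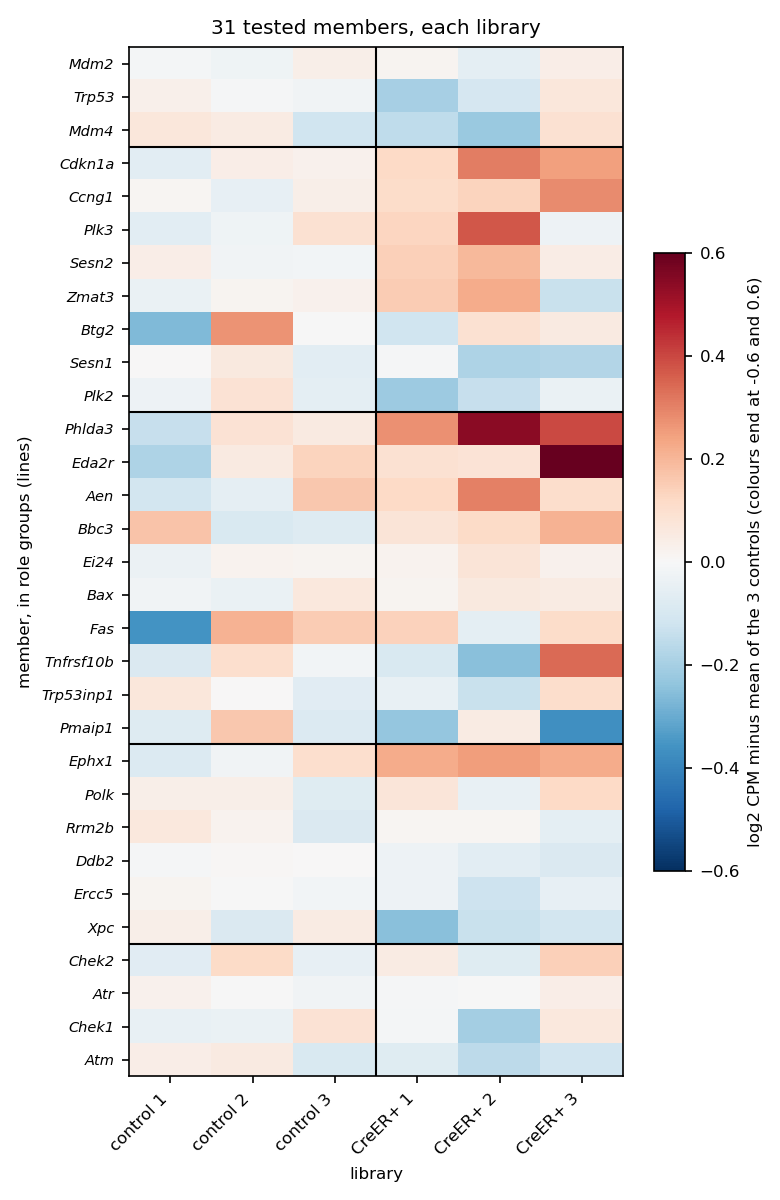
Each cell is the log2 CPM of 1 gene in 1 library minus the control mean, on the colour scale shown, with genes ordered by role and the 6 libraries in columns. Phlda3, Ephx1, Cdkn1a and Ccng1 are among 10 genes above the control mean in all 3 CreER-positive libraries; 6 genes are below it in all 3 and 15 lie on both sides.

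Single libraries mattered for which genes stood out. CreER-positive replicate 3 held the highest value of 11 of the 31 genes and replicate 1 of none. Without CreER-positive replicate 3, 11 of the 31 had an unadjusted edgeR p under 0.05, against a background of 18.6%, and none was called. Of the 11, 7 were higher in CreER-positive libraries (background 10.6%): Phlda3, Ephx1, Cdkn1a, Ccng1, Plk3, Aen and Zmat3. The other 4, Xpc, Trp53, Mdm4 and Plk2, were lower (background 7.96%).

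The same library was high in several lists of markers of other cell types, erythrocytes of the blood among them. The summed CPM of 7 macrophage markers was 51.0 to 68.1 in the controls and 54.0 to 97.5 in the CreER-positive group, that of 6 fibroblast markers 896 to 1170 and 975 to 1583, that of 6 satellite glia markers 1125 to 1151 and 1116 to 1439, and that of 5 erythrocyte markers 32.4 to 42.9 and 35.4 to 82.5. CreER-positive replicate 3 was the highest in each of these 4 lists, and all their markers had counts in all 6 libraries. Schwann cell markers (7) summed to 3120 to 3481 CPM and 3133 to 3872 CPM, and endothelial and mural markers (6) to 202 to 218 CPM and 173 to 199 CPM. That last sum was carried by Rgs5, which fell in edgeR (log2 fold change -0.41), while 5 of the 6 had positive values and the median was 0.15. The 10 pan-neuronal markers summed to 9004 to 10164 CPM and 8750 to 11157 CPM. CreER-positive replicate 3 was the lowest of all 6 libraries in this sum, and all 10 markers had counts in every library. Skeletal muscle markers (7) summed to 64.0 CPM in control replicate 2 and to at most 9.39 CPM elsewhere. In bulk RNA fewer cells of a type and less RNA per cell cannot be told apart. Without CreER-positive replicate 3 the log2 fold changes were 0.41 for Phlda3, 0.23 for Ephx1 and 0.22 for Cdkn1a, close to those with it, while that of Ccng1 was 0.12. Without control replicate 2 as well, they were 0.45, 0.22, 0.24 and 0.098.

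Other genes of the p53 network were listed by function, with earlier results of these data known. They gave 1 call in edgeR among 116 tested (0.862%), near the background of 0.726%. DESeq2 (background 1.93%) and limma-voom (background 0.721%) also called 1 each. Of 24 further p53 targets, all tested, 1 rose and none fell, with a median log2 fold change of 0.03. The gene that rose was Steap3, a p53-induced metalloreductase that makes iron available in endosomes. Steap3 measured 40.6, 43.1 and 44.1 CPM among controls, against 62.1, 62.0 and 55.8 CPM among CreER-positive mice. Every CreER-positive library was well above every control, with a log2 fold change of 0.49 ± 0.06 (SE, n = 3 against 3) and an edgeR adjusted p of 0.00638. Steap3 passed in each of the 14 alternative fits, with adjusted p from 4.2e-08 to 0.0492.

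Gadd45a, a p53 target that also responds to stress without p53, averaged 15.7 ± 1.21 CPM in the controls and 19.3 ± 1.51 CPM in the CreER-positive libraries (SD, n = 3; log2 fold change 0.30, edgeR adjusted p = 0.217). The 16 tested regulators of p53, of 17 listed, had a median of 0.05 and no call, with Trp53bp2 at 0.11 and Usp7 at -0.11 (edgeR adjusted p = 0.610 and 0.651). Of 25 genes of break repair and its signalling, 23 were tested, none was called and the median was -0.04. Rad9a, of a clamp that activates Atr, stood at 0.20 and Brca1, of homologous recombination, at -0.30 (edgeR adjusted p = 0.264 and 0.350). The 21 genes of excision repair and translesion synthesis, all tested, had a median of 0.01 and no call, with Ung at 0.36 and Ercc8 at -0.14 (edgeR adjusted p = 0.546 and 0.639).

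Proliferation genes, which p53 lowers through p21 in dividing cells, gave a median of -0.02 over the 17 tested of 18, with no call; Bub1 stood at 0.54 and E2f1 at -0.21 (edgeR adjusted p = 0.256 and 0.546). The 15 genes of the apoptosis machinery, all tested, gave a median of 0.02 and no call, with Bcl2, an inhibitor of mitochondrial cell death, at 0.12. The share with an unadjusted edgeR p under 0.05 was 0% to 8.70% in these 6 lists, beside 10.5% over all tested genes. The share with groups that do not overlap was 6.25% to 26.1%, beside 15.9%. It was highest for break repair and its signalling, at 6 of 23. Of those, 5 were lower in CreER-positive libraries (background 9.31%) and 1 was higher (background 6.63%).

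**Figure D4:**
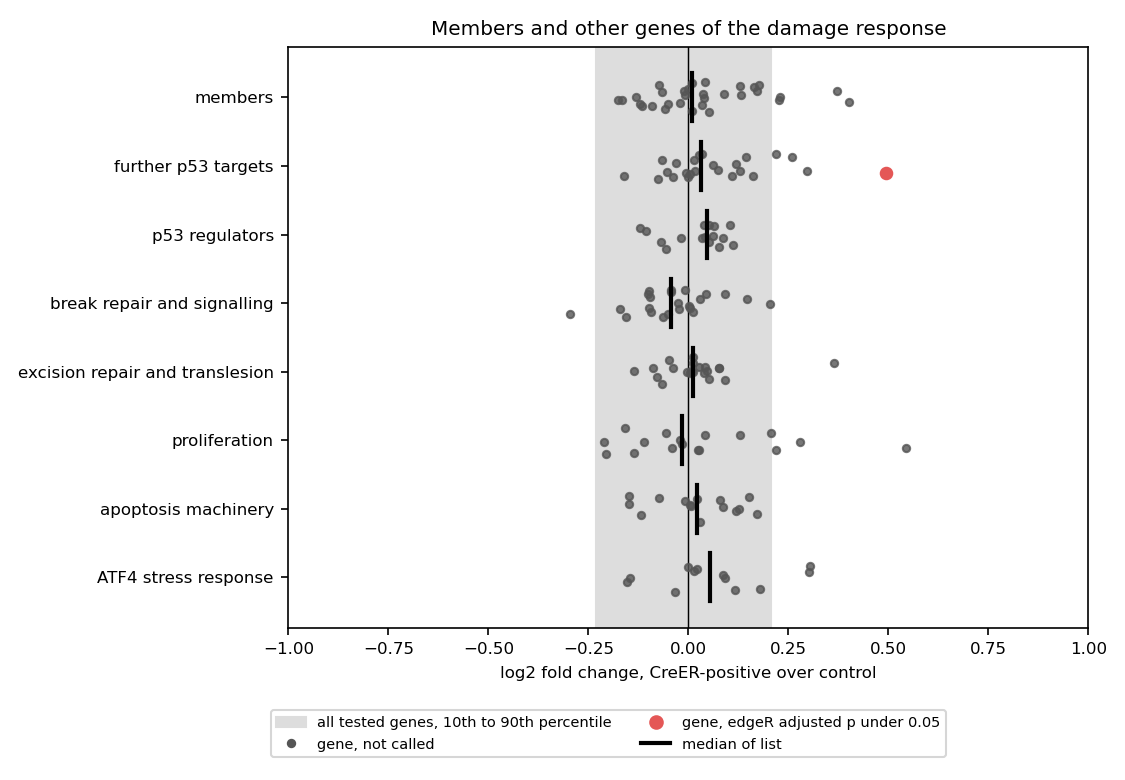
The log2 fold change (x axis, CreER-positive over control) of each tested gene is plotted for the 31 p53 and damage response genes and for 7 further lists, with black bars for medians, grey points for genes that were not called and grey shading from the 10th to the 90th percentile of all tested genes. Steap3, at 0.49, is the one gene plotted that passed an adjusted p of 0.05 in edgeR.

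Both checks of the labels rest on whole-gene counts. Scn9a measured 635, 611 and 557 CPM among controls, against 620, 565 and 574 CPM among CreER-positive mice (log2 fold change -0.04, edgeR adjusted p = 0.916), which does not check a deletion of some exons. Esr1, the oestrogen receptor gene whose domain CreER fusions carry, measured 20.7, 23.1 and 27.3 CPM among controls, against 77.9, 75.2 and 56.2 CPM among CreER-positive mice (log2 fold change 1.56 ± 0.13 (SE, n = 3 against 3), edgeR adjusted p = 0.00136). Reads of the transgene and of the gene itself are not separated in these counts. Counts summed over all listed genes were 40237131 to 63332040 per library, and counts of the 31 tested genes ran from 33 to 12612.

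**Figure D5:**
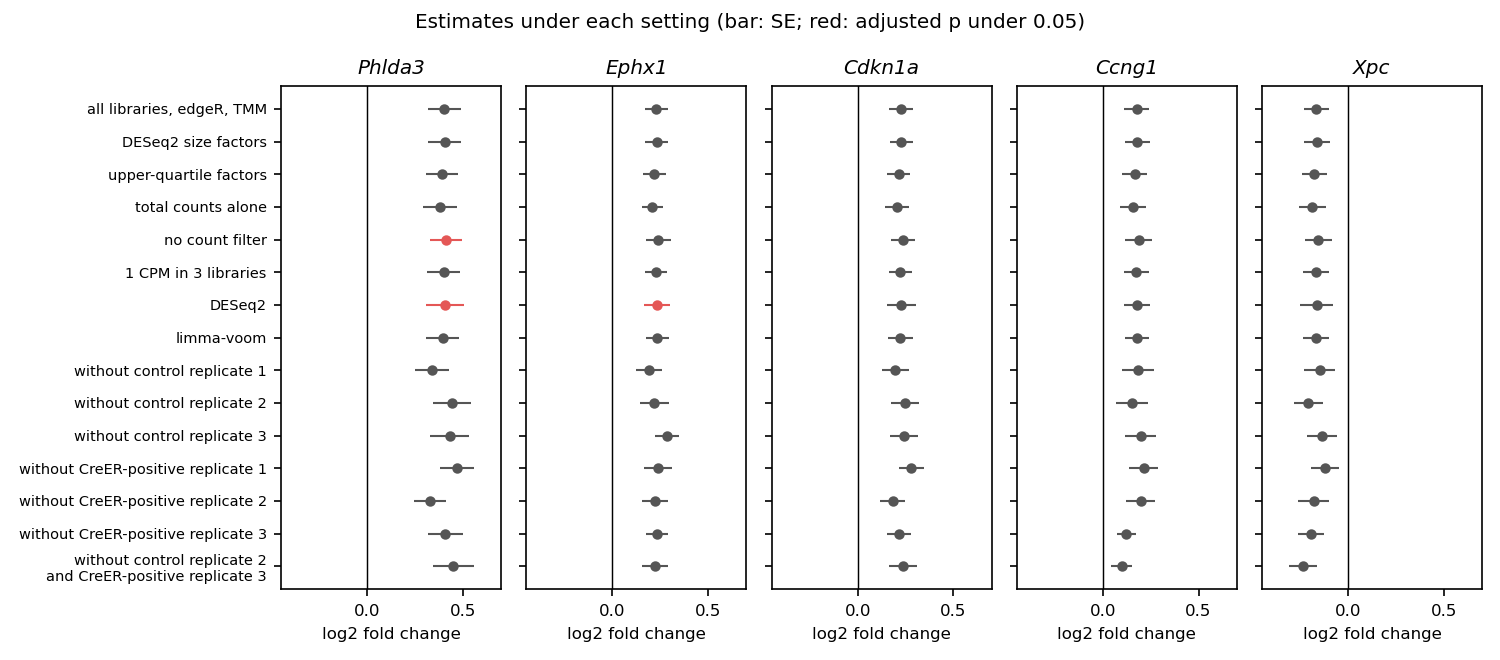
The log2 fold change (x axis) of selected genes is plotted for the edgeR fit and for each alternative fit (y axis). Phlda3, Ephx1, Cdkn1a and Ccng1 stay above 0 and Xpc below 0 in each fit plotted.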

How the data were processed

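GSNAP is the aligner and GRCm38 (mm10) the build, per the submitters' processing notes. For each of 6 libraries the authors deposited read counts per gene, RPKM and gene width (a length in bases, another unit); the counter, its annotation and strand setting: not given in the sources used here. Of 36528 listed genes, 31049 matched a symbol.

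Counts were tested with edgeR 4.0.16 in R 4.3.3 (filterByExpr, TMM, quasi-likelihood, 2 groups, all 6 libraries), with Benjamini-Hochberg adjustment over 22043 genes and a threshold of 0.05. CPM uses TMM library sizes. Alternatives were other scalings, other filters, DESeq2 1.42.0, limma-voom 3.58.1 and leaving out libraries. The functions were tested on simulated data. The p-values rest on the spread between 3 animals a group, with the spread of each gene estimated partly from that of all genes.

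Genes given in full are those with an unadjusted p under 0.05, with groups that do not overlap or with a call under any alternative, and Trp53, Cdkn1a, Mdm2, Bax, Atm and Atr; in further lists, those with the smallest p, of which 1 is not reported here. The genes and lists were chosen with earlier results of these data known.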

Additional observations from a re-analysis of the deposited data

How the results depend on the processing

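No paired analysis was possible because the labels give no replicate numbers and tie no control to a CreER-positive mouse. Over all genes, 160 calls became 254 with no count filter, 425 with DESeq2 and 60 to 549 when 1 library was left out. Calls among the 31 genes went from 0 to 1 (Phlda3) with no filter and to 2 (Phlda3 and Ephx1) with DESeq2. When 1 library was left out, the number with an unadjusted p under 0.05 was 4 to 11, as the share of all genes ran from 6.74% to 18.6%. The number with groups that do not overlap was then 9 to 15 (all genes 22.2% to 36.2%), and without control replicate 2 and CreER-positive replicate 3 it was 15 (48.4%, beside 47.4% of all genes); other scalings and filters gave 7 to 9. The median log2 fold change was -0.0056 to 0.052 when 1 library was left out.

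The sign was kept under every alternative by 22 of the 31, Phlda3 (adjusted p 0.00400 to 0.341), Ephx1 (0.0445 to 0.607), Cdkn1a (0.107 to 0.617), Ccng1 (0.209 to 0.823) and Xpc (0.171 to 0.834) among them. The other 9 lay near 0 and changed sign; the cause was not tested. Leaving out 1 library gave log2 fold changes of -0.021 to 0.028 for Mdm2, -0.125 to 0.135 for Btg2, -0.115 to 0.134 for Fas, -0.174 to 0.130 for Tnfrsf10b, -0.0873 to 0.0333 for Trp53inp1, -0.052 to 0.0212 for Rrm2b, -0.00562 to 0.0214 for Atr, -0.108 to 0.0212 for Chek1 and -0.0138 to 0.0977 for Chek2. Mdm2 was 0.00102 with DESeq2 size factors, 0.00858 with no filter and 0.000884 with DESeq2, and Btg2 0.00124 with no filter. With upper-quartile and total-count scaling, Tnfrsf10b was -0.00112 and -0.00968 and Atr -0.00139 and -0.0122, and limma-voom gave Tnfrsf10b -0.0197. Without control replicate 2 and CreER-positive replicate 3, Btg2 was 0.111, Tnfrsf10b -0.123, Rrm2b 0.0230, Atr -0.00719, Mdm2 -0.0339, Trp53inp1 -0.0876 and Chek1 -0.132. Eda2r, under the filter of 1 CPM, had 1 alternative fewer. Depth limits Gdf15, Eda2r and Tnfrsf10b most.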

Other observations

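Genes of the ATF4 stress response, some of which p53 also regulates, had 3 of 12 tested genes with an unadjusted edgeR p under 0.05 (25.0%, background 10.5%). All 3 were higher in CreER-positive libraries (background 4.99%). edgeR called none of the 12 (background 0.726%) and DESeq2 called 1 (background 1.93%), and the median log2 fold change was 0.05. Atf5, the gene DESeq2 called, a transcription factor of this response, averaged 45.2 ± 2.72 CPM in the controls and 55.7 ± 0.924 CPM in the CreER-positive libraries (SD, n = 3), with a log2 fold change of 0.30 and an adjusted p of 0.0508 in edgeR and 0.00278 in DESeq2. Of 10 tested genes known to rise in sensory neurons after nerve injury, a list chosen with these data known, Cckbr was the 1 that rose in edgeR (background 0.726%), and DESeq2 called 4 (background 1.93%). An unadjusted edgeR p under 0.05 was found for 7 of the 10 (background 10.5%), the groups did not overlap for 8 (background 15.9%), and the median log2 fold change was 0.59.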
